A study of Mus musculus with 75 samples.

Results

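Transcripts of the EGF receptor family were followed in obstructed and contralateral mouse kidneys. The 9 genes were taken by symbol from the 32245 rows of the table of raw counts: the ligands Egf, Hbegf, Areg, Ereg, and Tgfa, and the receptors Egfr, Erbb2, Erbb3, and Erbb4. Enough counts for a test were present in all 3 arms for 6 of the 9, while Areg, Ereg, and Tgfa stayed under the filter on low counts in each arm. Whole-kidney RNA was sequenced from adult mice 3 days after unilateral ureter obstruction (UUO), which gave 75 libraries that fall into 12 groups, and the unobstructed contralateral (CL) kidney was the comparison. All mice received the analgesic carprofen, and both sexes were used.

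In the first arm, C57BL6/J mice or wild-type mice of the study's breedings received a human IgG Fc control (IgG; 8 CL and 8 UUO kidneys) or ABTAA, an antibody that binds angiopoietin-2 and activates TIE2 (ABT; 7 CL and 7 UUO). In the second arm, endothelial deletion of Veptp by tamoxifen-induced Cdh5-CreERT2 (VeKO; 6 CL and 8 UUO) was set against noninduced Veptp wt/lox mice that also carried Cdh5-CreERT2 (VeWT; 7 CL and 8 UUO). The study's methods name 7 mice of that kind, while 8 UUO libraries carry the label. In the third arm, deletion of floxed Pdgfb in the whole body by a tamoxifen-induced Cre under the actin promoter (PbKO) was set against littermates without Cre (PbWT), with 4 libraries in each group. By the study's methods, 2 of the PbWT CL kidneys came from sham operations, and the labels do not mark which. The labels give no mouse number, and only some library names hold numbers shared by CL and UUO kidneys. These kidneys were therefore compared as separate groups.

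EGF family ligands are made as membrane proteins and released by proteases, or act on neighboring cells. They bind EGFR, ERBB4, or, in the case of neuregulins, ERBB3, whose kinase is weak. The receptors pair with each other and with ERBB2, which has no known ligand, and signal through RAS, ERK, PI3K, and STAT3. In the kidney, Egf is known as a product of the thick ascending limb and the distal convoluted tubule. HB-EGF, amphiregulin, epiregulin, and TGF-α are known mainly as ligands that injured epithelium makes.

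Library totals ranged from 172827 to 2341800 counts, with a median of 757897. Levels are given as CPM (counts relative to the library total), scaled by TMM factors over all 75 libraries, and were compared within a gene only. The deleted genes were a limited check of the labels: Ptprb, which encodes VE-PTP, differed by -0.69 (log2, SE 0.33, edgeR adjusted p = 0.9998) between UUO kidneys of VeKO and VeWT mice. Pdgfb was not lower in CL kidneys labelled PbKO (16.8 to 25.1 CPM) than in those labelled PbWT (4.53 to 20.1 CPM), while UUO kidneys labelled PbKO held 33.1 to 40.9 CPM against 43.6 to 57.4 CPM. The log2 difference in UUO kidneys was -0.47 (SE 0.21, edgeR adjusted p = 0.124), and the responses to UUO differed by -1.26 (SE 0.39, adjusted p = 0.0458). In 24 of the 75 libraries at least 10 counts of Xist stood beside at least 10 counts of Y-linked genes, among them all 4 PbKO UUO libraries. The names of 30 libraries join a letter and a number with the character _ (joined names, such as P_2), and those of 45 do not (plain names, such as D6), all 16 of the Pdgfb arm included. What the character marks is not given in the sources used here.

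Egf, the founding ligand of the family, was called lower with obstruction in 5 of the 6 kinds of mice, and its estimate was negative in all 6. It lies at chr3:129677565-129755316 on the minus strand of GRCm38 (mm10), as a protein-coding gene. In CL kidneys it stood between 608 and 2120 CPM in all 36 libraries, and in UUO kidneys between 32.0 and 1310 CPM in 39. These are bulk libraries, so fewer cells of a kind and less RNA per cell cannot be told apart.

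In IgG mice, Egf was 1147, 1589, and 2040 CPM (lowest, median, and highest) in CL and 51.2, 82.6, and 768 CPM in UUO kidneys. The groups did not overlap, and all UUO libraries but D6 lay at or under 124 CPM. The log2 fold change was -3.16 (SE 0.53, edgeR adjusted p = 1.41e-05), and -4.15 without library D6. In ABT mice, the values were 1155, 1692, and 2116 CPM in CL and 32.0, 154, and 1055 CPM in UUO kidneys. These groups did not overlap either, but G5 and H5, at 912 and 1055 CPM, lay close to the lowest CL library (log2 fold change -2.09, SE 0.54, adjusted p = 0.00348).

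In VeWT mice, Egf was 841, 1064, and 1703 CPM in CL and 46.6, 105, and 604 CPM in UUO kidneys, again without overlap (log2 fold change -2.24, SE 0.61, adjusted p = 0.00886). The change was -2.02 (SE 0.69) and no longer called (adjusted p = 0.0767) without the libraries numbered 3, 4, 7, and 8, whose numbers carry opposite genotypes in the CL and UUO kidneys. In VeKO mice the fall was not called: 608, 1258, and 1702 CPM in CL overlapped with 36.2, 329, and 1310 CPM in UUO kidneys (log2 fold change -1.43, SE 0.62, adjusted p = 0.169). The response of VeKO mice differed from that of VeWT mice by 0.81 (SE 0.86, adjusted p = 0.9997), so a different response was not shown. The UUO libraries of VeKO mice lay in separate ranges by the form of their names, with 36.2 to 89.0 CPM in the 4 with joined names and 570 to 1310 CPM in the 4 with plain names.

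**Figure D1:**
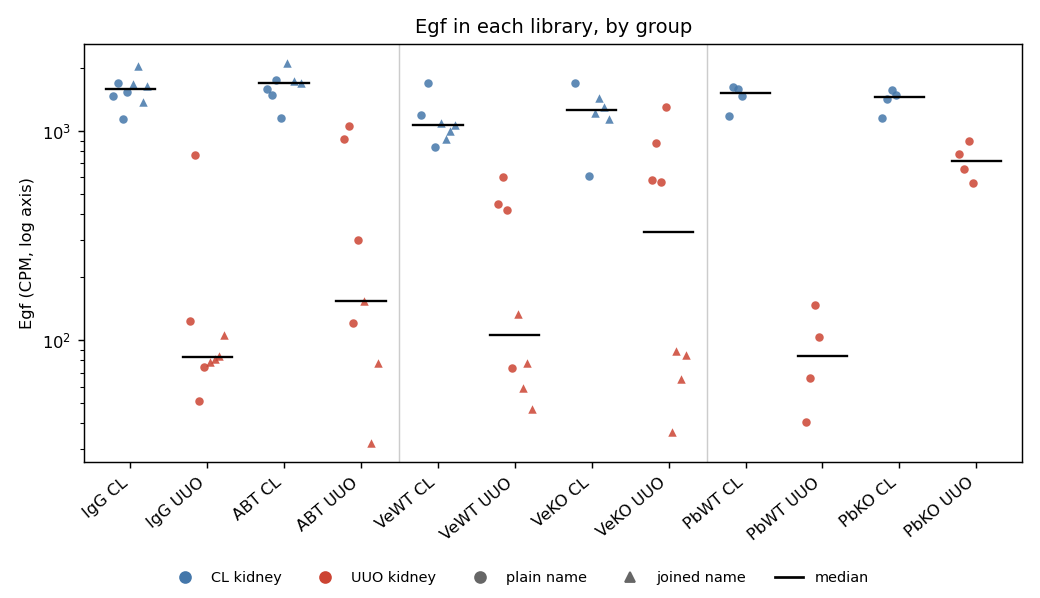
Level of Egf (CPM, log axis) in each of the 75 libraries by group. Circles are libraries with plain and triangles libraries with joined names, and lines are group medians. All CL libraries lie at or above 608 CPM, the UUO libraries with joined names lie between 32.0 and 154 CPM, and the 4 PbKO UUO libraries lie between 565 and 892 CPM.

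In VeKO mice alone the form of the name separated the UUO kidneys without overlap. Of the UUO libraries of both first arms, the 15 with joined names held at most 154 CPM of Egf, whether mice were IgG, ABT, VeWT, or VeKO, while the 16 with plain names ran from 51.2 to 1310 CPM, and 5 of these lay within the range of the joined names. The response of Egf to UUO was 2.81 log2 units deeper in libraries with joined names in the Veptp arm (difference -2.81, SE 0.44, adjusted p = 0.000514), where 0.369% of all genes were called for that difference. In the ABTAA arm the difference was -2.39 (SE 0.54, adjusted p = 0.0595), where 0.0% were called. This comparison was chosen after seeing the data.

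Within the libraries with joined names, Egf fell in all 4 kinds of mice, with log2 fold changes of -4.24 (IgG), -4.36 (ABT), -3.65 (VeWT), and -4.17 (VeKO) and adjusted p from 2.11e-09 to 1.44e-08 in the Veptp arm and from 1.95e-09 to 1.91e-08 in the ABTAA arm. Within those with plain names, the changes were -2.43 (IgG, adjusted p = 0.00206), -1.30 (ABT, 0.111), -1.62 (VeWT, 0.0141), and -0.43 (VeKO, 0.896). The last rests on 2 CL libraries, E7 at 1702 CPM and B8 at 608 CPM of Egf, and 0.0% of all genes were called in that comparison. B8 also held 228 CPM of Havcr1, a marker of injured tubule, where E7 held 14.4 CPM. With the form of the name as a covariate the change in VeKO mice was -2.63 (adjusted p = 0.00015). Among UUO libraries of both arms with plain names, the 8 with counts of both Xist and Y-linked genes held 51.2 to 570 CPM of Egf and the 8 others 421 to 1310 CPM. With all libraries that hold both counts left out, the changes were -2.58 (IgG, adjusted p = 0.0125), -1.93 (ABT, 0.0622), -2.29 (VeWT, 0.0363), and -1.70 (VeKO, 0.192).

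In the Pdgfb arm Egf differed between genotypes in UUO kidneys. PbWT CL libraries held 1185, 1617, 1588, and 1468 CPM, and PbWT UUO libraries 40.6, 65.7, 147, and 103 CPM. PbKO CL libraries held 1153, 1416, 1575, and 1490 CPM, and PbKO UUO libraries 775, 661, 892, and 565 CPM. In each genotype the UUO values lay under all CL values, and every PbKO UUO library lay above every PbWT UUO library.

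Egf fell by 4.02 on the log2 scale in PbWT (SE 0.26, adjusted p = 4.4e-11) and by 0.96 in PbKO mice (SE 0.23, adjusted p = 0.0141). In UUO kidneys Egf was 8.04-fold higher in libraries labelled PbKO than in those labelled PbWT (log2 3.01, SE 0.25, adjusted p = 1.77e-08). The responses to UUO differed by 3.06 (SE 0.34, adjusted p = 3.84e-06), and in CL kidneys the genotypes differed by -0.05 (SE 0.23, adjusted p = 1.00). The change in PbKO mice was of similar size but no longer called without E11 (-0.92, adjusted p = 0.0527), without F12 (-0.85, 0.064), or with all 12 groups in 1 fit (-0.96, 0.761), where the difference between the responses was not called either (3.07, adjusted p = 0.231). All 4 PbKO UUO libraries hold counts of both Xist and Y-linked genes, and the part of this in the result was not tested.

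**Figure D2:**
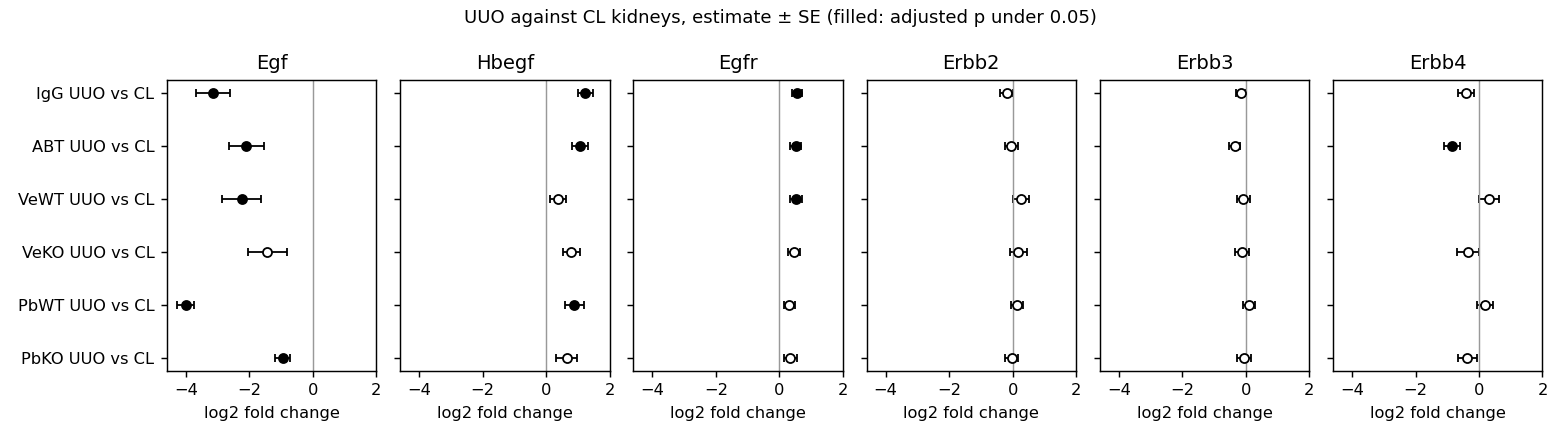
Log2 fold change in UUO against CL kidneys (points) with its standard error (bars) for the 6 tested genes in the 6 kinds of mice. Filled points have an adjusted p under 0.05, and within each kind of mouse Egf has the largest change, from -4.02 in PbWT to -0.96 in PbKO mice.

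In UUO kidneys of ABT mice Egf was 2.16-fold that of IgG mice (log2 1.11, SE 0.52), and in VeKO 1.93-fold that of VeWT mice (log2 0.95, SE 0.58), with overlapping groups and adjusted p of 0.9999 and 0.9998. With 1 library left out the first log2 difference was 0.61 without H5, 0.72 without G5, and 2.07 without D6 (adjusted p = 0.461), and the second 0.48 without E9 and 1.33 without C9, none of them called. In the libraries with joined names the same differences were 0.01 and -0.19, and in those with plain names 1.15 and 1.1. None of the 6 tested genes passed the threshold between ABT and IgG mice, in UUO kidneys, in CL kidneys, or in their response to UUO, where 0.0%, 0.0%, and 0.0% of all genes were called by edgeR. At an unadjusted threshold of 0.05 edgeR counted Egf alone in UUO kidneys, beside 340 of 9579 genes, and none of the family in CL kidneys (303 genes) or in the response (315 genes). None passed between VeKO and VeWT mice either (0.0%, 0.0%, and 0.0% of all genes), and none between PbKO and PbWT CL kidneys (0.0%). At the same unadjusted threshold Erbb4 alone was counted between VeKO and VeWT CL kidneys (log2 0.72, SE 0.35), beside 229 of 11916 genes, and none of the family in their UUO kidneys (426 genes), in their response (323 genes), or between the Pdgfb CL groups (379 of 10923 genes). DESeq2 called none of the genes in these 7 comparisons, and without a filter on low counts edgeR called Egf between ABT and IgG UUO kidneys (1.1, adjusted p = 0.0141).

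Markers of the segments known to make Egf fell with UUO, and so did those of other tubule segments. Of the thick ascending limb markers Umod, Slc12a1, Cldn16, and Kcnj1, 3 of 4 fell in IgG, ABT, and PbWT and 2 of 4 in VeWT, VeKO, and PbKO mice. Their summed level was 4510 to 10300 CPM in CL and 2160 to 4780 CPM in UUO kidneys of the ABTAA arm, and 2010 to 2390 CPM in PbWT against 3080 to 4530 CPM in PbKO UUO kidneys. Of the distal convoluted tubule markers Slc12a3, Pvalb, Calb1, and Trpm6, 3 of 4 fell in IgG, ABT, and PbWT, 2 in VeWT and PbKO, and 1 in VeKO mice. Their summed level was 212 to 264 CPM in PbWT and 727 to 958 CPM in PbKO UUO kidneys, with 3 of 4 higher in PbKO. In VeKO UUO kidneys it was 244 to 430 CPM in libraries with joined and 500 to 1140 CPM in those with plain names. The thick ascending limb sum was also lower in joined names of the Veptp arm without overlap, at 1240 to 1870 against 3480 to 5160 CPM in VeKO and 1120 to 2230 against 3320 to 3810 CPM in VeWT UUO kidneys. It was so in their CL kidneys too, at 3170 to 4870 against 5440 to 6480 CPM and 2900 to 3330 against 4910 to 5340 CPM. Of 6 proximal tubule markers, 6, 5, 3, 3, 6, and 4 fell in IgG, ABT, VeWT, VeKO, PbWT, and PbKO mice, and of 5 collecting duct markers 3, 2, 3, 3, 4, and 1. In UUO kidneys 5 of 6 proximal tubule and 3 of 5 collecting duct markers were higher in PbKO than in PbWT mice, with summed levels of 2510 to 4520 against 1300 to 2080 CPM and of 320 to 419 against 172 to 282 CPM. Of 7 injured tubule markers 1 was lower in PbKO and none higher, with summed levels of 2230 to 2790 against 3410 to 4240 CPM. No marker of the thick ascending limb or distal convoluted tubule was at 0 in every library of a group, and the part of these cells in the levels of Egf was not tested.

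Umod, which encodes uromodulin of the thick ascending limb, was 1730 to 7060 CPM in CL and 863 to 3920 CPM in UUO kidneys. Of 9554 genes tested in all arms, Calb1, the calcium-binding calbindin of the distal tubule, followed Egf most closely, with r = 0.997 over the means of 12 groups, ahead of Cyp2j11 (0.996) and Eci3 (0.995). Over the 75 libraries, after group and name form were taken out, Calb1 again came first (r = 0.838), before Slc12a1, the sodium-potassium-chloride transporter of the thick ascending limb (0.781), and Car14 (0.773). These points share libraries and scaling, and the values are descriptions. Calb1 ranged from 278 to 1230 CPM in CL and from 17.1 to 575 CPM in UUO kidneys.

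**Figure D3:**
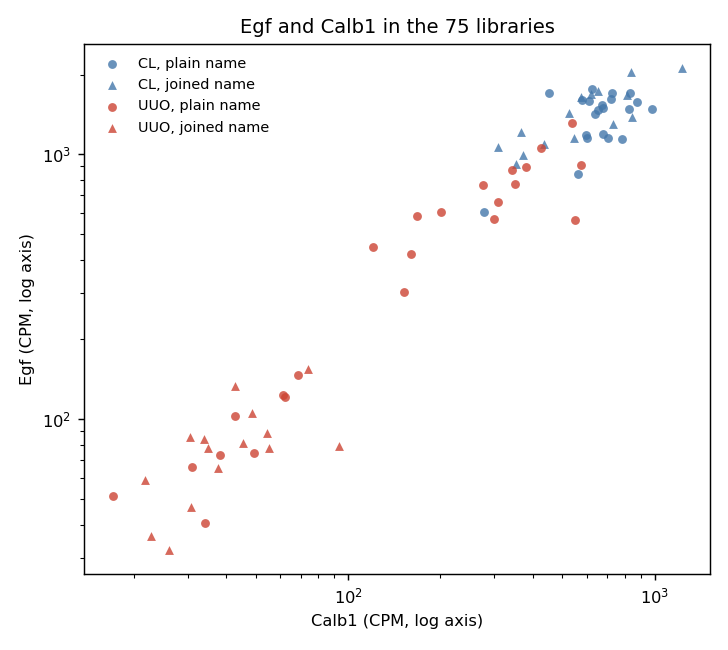
Egf against Calb1 (CPM, both axes log) in the 75 libraries, with color for the kidney and shape for the form of the library name. CL libraries lie at 608 to 2120 CPM of Egf and 278 to 1230 CPM of Calb1, and UUO libraries spread from 32.0 CPM of Egf upward along both axes.

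Hbegf, the heparin-binding ligand of EGFR and ERBB4, rose with obstruction in IgG, ABT, and PbWT mice. In IgG mice it was 14.2, 20.6, and 59.8 CPM (lowest, median, and highest) in CL and 30.4, 54.5, and 72.6 CPM in UUO kidneys. Only CL libraries A6 and B7, at 38.9 and 59.8 CPM, reached into the range of the UUO libraries. The log2 fold change was 1.23 (SE 0.24, adjusted p = 9.69e-05), 1.73 in libraries with joined and 0.86 in those with plain names (adjusted p = 0.0588 for the latter). In ABT mice, 12.5, 18.8, and 31.4 CPM stood against 23.1, 43.6, and 48.6 CPM, overlapping by UUO library G5 alone (log2 fold change 1.06, SE 0.25, adjusted p = 0.00133).

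PbWT CL libraries held 35.1, 18.2, 17.8, and 20.1 CPM of Hbegf and PbWT UUO libraries 36.1, 43.6, 39.2, and 53.5 CPM, without overlap. The log2 fold change of 0.89 (SE 0.29, adjusted p = 0.0193) was no longer called when F4, A5, B5, or D12 was left out, with adjusted p up to 0.0625. With 1 library left out the estimate stayed between 0.78 and 1.17. PbKO CL libraries held 23.3, 30.4, 29.6, and 17.9 CPM and PbKO UUO libraries 53.0, 64.2, 24.9, and 20.4 CPM, so that 2 UUO libraries were high and 2 lay among the CL values (log2 fold change 0.65, SE 0.33, adjusted p = 0.283). The responses of both genotypes differed by -0.24 (SE 0.45, adjusted p = 0.822).

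In the Veptp arm Hbegf overlapped between kidneys. VeWT mice had 16.0, 31.4, and 46.8 CPM in CL and 24.5, 37.6, and 54.1 CPM in UUO kidneys (log2 fold change 0.38, SE 0.25, adjusted p = 0.33). VeKO mice had 14.4, 22.3, and 44.1 CPM against 26.9, 43.8, and 62.2 CPM (log2 fold change 0.79, SE 0.27, adjusted p = 0.0655). The latter passed the threshold without G_1 (1.01, adjusted p = 0.0266), without E9 (0.86, 0.0394), or with the name form as a covariate (0.81, 0.0186). In order of group medians, all 6 UUO groups, from 37.6 to 54.5 CPM, stood above all 6 CL groups, from 18.8 to 31.4 CPM, but within each set the ranges of neighbors overlapped. All 7 markers of injured tubule rose in all 6 kinds of mice. Of 6 fibroblast markers 6, 6, 6, 2, 6, and 2 rose in IgG, ABT, VeWT, VeKO, PbWT, and PbKO mice, and of 8 macrophage markers 8, 7, 7, 6, 8, and 5. The part of these cells in the values of Hbegf was not tested. Over the means of the 12 groups Crem (r = 0.963), Vtcn1 (0.960), and Gm12185 (0.956) followed Hbegf most closely, and over the 75 libraries Kcnk5 (0.5), Cfb (0.479), and Gm15347 (0.46).

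**Figure D4:**
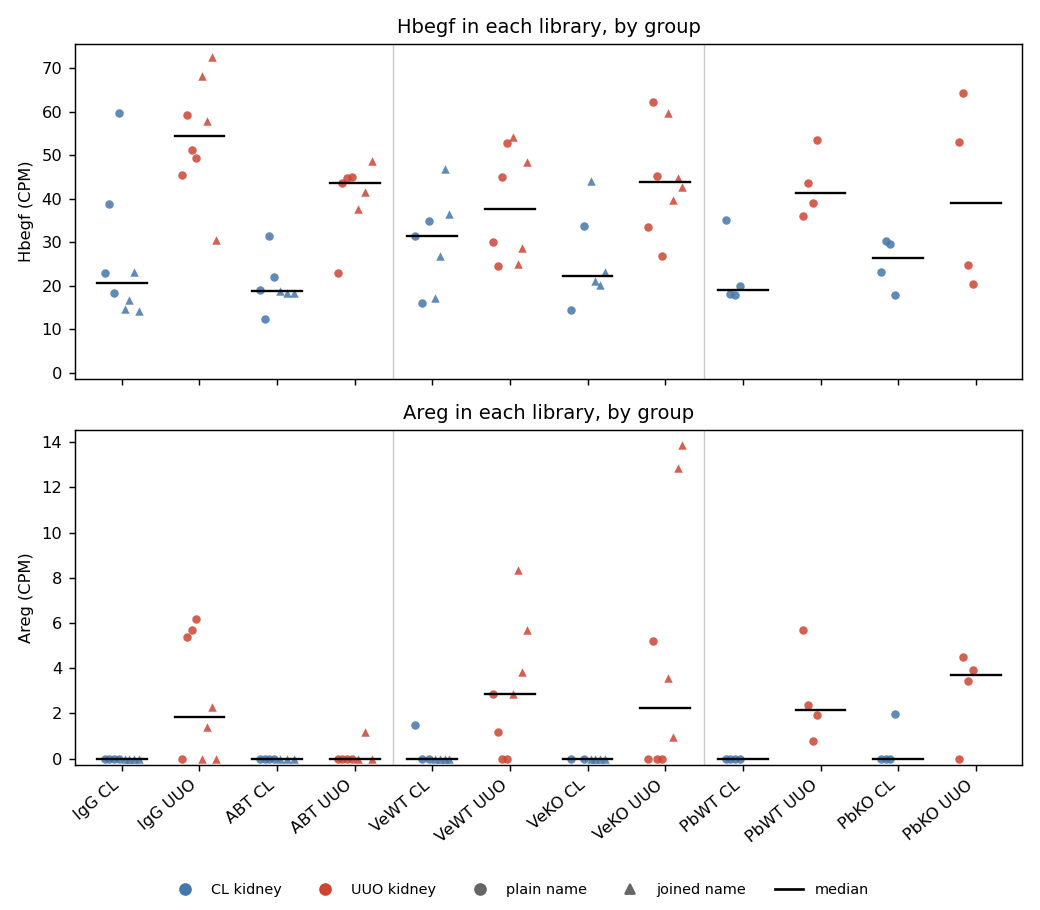
Levels of Hbegf (top) and Areg (bottom) in CPM in each library by group, with circles for plain and triangles for joined library names and lines for medians. All 6 UUO medians of Hbegf exceed the CL medians, and Areg is above 0 in 24 of 39 UUO and 2 of 36 CL libraries.

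Areg, which encodes amphiregulin, was detected almost only in obstructed kidneys. It is a protein-coding gene at chr5:91139599-91148432 on the plus strand. Over all libraries 164 counts fell in 24 of 39 UUO kidneys and 3 counts in 2 of 36 CL kidneys, VeWT F3 with 1 and PbKO A11 with 2.

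The 100 bases before its start, read from the promoter table of RefSeq for GRCm38.p6 together with those of Egf, are shown because the ligand detected mostly in obstructed kidneys and the ligand that fell there differ in the motifs searched. Capitals mark matches. Promoters of 250 bases before to 50 after the start were found for 6 of the 9 genes (Areg, Tgfa, Egf, Egfr, Erbb2, and Erbb4) and searched on both strands for TATAAA (a core promoter element), TGANTCA (AP-1), and TGACGTCA (the cyclic AMP response element, CRE), which 13.6%, 7.81%, and 1.79% of 32817 promoters hold.
Areg, chr5:91139499-91139598, plus strand: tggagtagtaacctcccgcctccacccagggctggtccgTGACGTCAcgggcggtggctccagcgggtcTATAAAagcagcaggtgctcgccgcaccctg
Egf, chr3:129755323-129755422, minus strand: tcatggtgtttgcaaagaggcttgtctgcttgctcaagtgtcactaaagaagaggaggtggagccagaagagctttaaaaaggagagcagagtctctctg
Areg holds a CRE at -61 to -54 and the core promoter element at -31 to -26 from its start, and the other windows, that of Egf included, hold none of the 3 motifs. A match is a description of letters and shows no binding.

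By group, Areg was at 0 in all 8 IgG CL libraries and at 0, 1.82, and 6.19 CPM (lowest, median, and highest) in IgG UUO kidneys. In ABT mice it was at 0 in all 7 CL libraries and in 6 of 7 UUO libraries, with 1 count in O_11. VeKO mice had no count in 6 CL libraries and 83 counts in 8 UUO libraries, of which 75 were in H_7 and H_8, at 12.9 and 13.9 CPM. VeWT UUO libraries held 0 to 8.35 CPM, PbWT UUO libraries 5.7, 2.39, 0.799, and 1.95 CPM, and PbKO UUO libraries 0, 4.51, 3.43, and 3.93 CPM. Medians of UUO libraries with joined and plain names were 4.76 and 0.583 CPM in VeWT and 8.22 and 0 CPM in VeKO mice. In IgG mice they stood the other way, at 0.689 and 5.54 CPM.

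On the same TMM scale, Areg summed over UUO kidneys was 13.4-fold a floor of 3 counts over the CL group in VeKO, 2.69-fold in PbWT, and 2.69-fold in IgG mice. Of the 17 counts in PbWT UUO kidneys 9 were in B11, and without it that ratio was 1.65-fold. In VeKO mice the ratio was 10.5-fold without H_7 and 9.61-fold without H_8, and leaving out both was not tried. With no filter on low counts edgeR called the difference between UUO and CL kidneys in IgG (adjusted p = 0.0389), VeWT (0.00566), VeKO (0.00383), and PbWT mice (0.00988). It did not in ABT (0.614) or PbKO mice (0.363). DESeq2 called it in VeWT (adjusted p = 0.0175), VeKO (0.0154), and PbWT mice (0.0432) and gave no adjusted p for the others. The floor covers counting error of the CL group only and not that of the UUO counts, so these ratios are not lower bounds. Between ABT and IgG, VeKO and VeWT, and PbKO and PbWT UUO kidneys a difference in Areg was not detectable at this depth (adjusted p = 0.932, 0.994, and 0.738 with no filter).

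Ereg, the gene of epiregulin, had 11 counts in 6 of 39 UUO and 1 count in 1 of 36 CL libraries, too few for any comparison. Tgfa was present in both kidneys, with a count in 33 of 36 CL and 35 of 39 UUO libraries, up to 10.7 and 12.6 CPM. Its group medians ran from 2.3 CPM in IgG CL to 6.64 CPM in ABT CL kidneys, and the ranges of CL and UUO kidneys overlapped in all 6 kinds of mice. With no filter the log2 fold changes of Tgfa ran from -0.45 (PbKO) to 0.99 (PbWT), with adjusted p from 0.216 to 0.958.

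Of the receptors, Egfr, which binds EGF, amphiregulin, TGF-α, and HB-EGF, was higher in UUO kidneys of IgG, ABT, and VeWT mice. In IgG mice it was 47.0, 55.8, and 103 CPM in CL and 68.1, 88.9, and 103 CPM in UUO kidneys, where CL library P_2 alone reached into the UUO range. The log2 fold changes were 0.56 (SE 0.17, adjusted p = 0.00879) in IgG, 0.51 (SE 0.17, adjusted p = 0.0275) in ABT, and 0.53 (SE 0.18, adjusted p = 0.0421) in VeWT mice. In ABT mice 33.1 to 68.8 CPM in CL overlapped with 52.7 to 98.4 CPM in UUO kidneys, and in VeWT mice 48.1 to 84.4 CPM with 65.2 to 127 CPM.

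With 1 library left out the estimates of Egfr stayed at 0.42 to 0.59 in ABT and at 0.44 to 0.59 in VeWT mice, but their calls lay near the threshold. The call in ABT mice was lost without F5, F6, H5, G6, or O_11 (adjusted p up to 0.0908). That in VeWT mice was lost without any of 15 of the 29 libraries of its arm (F3, A8, G_2, G_3, G_5, G_7, G_8, H9, H_1, and H_3 to H_8, with adjusted p up to 0.0999). Within libraries with joined names the changes in IgG and ABT mice were 0.36 (adjusted p = 0.229) and 0.24 (0.546). Without the libraries that hold counts of both Xist and Y-linked genes they were 0.45 (IgG, adjusted p = 0.127), 0.42 (ABT, 0.233), and 0.50 (VeWT, 0.111). In the other mice the estimates were 0.46 (VeKO, adjusted p = 0.158), 0.30 (PbWT, 0.176), and 0.35 (PbKO, 0.337). PbWT CL libraries held 63.4, 53.3, 66.9, and 50.7 CPM and PbWT UUO libraries 69.1, 69.3, 89.5, and 55.4 CPM, and PbKO CL libraries held 54.4, 58.3, 31.9, and 43.8 CPM and PbKO UUO libraries 76.2, 53.0, 63.5, and 54.3 CPM.

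Erbb2 and Erbb3 did not pass the threshold in any comparison. Erbb2, the partner without a ligand of its own, had group medians from 36.0 to 50.4 CPM and log2 fold changes with UUO from -0.19 (SE 0.20) to 0.26 (SE 0.25). Erbb3, a receptor of neuregulins, had group medians from 49.7 to 69.4 CPM and log2 fold changes from -0.35 (SE 0.17, ABT, adjusted p = 0.125) to 0.09 (SE 0.20). CL and UUO libraries overlapped in all 6 kinds of mice for both genes. With the number in the library name as a block, Erbb3 passed in ABT mice (-0.39, adjusted p = 0.04997), as it did without library O_9 (-0.48, 0.0377) or with the name form as a covariate (-0.37, 0.0406). In the ABTAA arm that block had terms for N_9 with O_9 and N_11 with O_11 alone. All other libraries of the arm stayed unpaired, so this was not a paired test of the arm.

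Erbb4, a receptor of neuregulins and HB-EGF, was lower in UUO kidneys of ABT mice, with 13.6, 16.6, and 40.5 CPM against 21.4, 32.8, and 50.1 CPM in CL kidneys (log2 fold change -0.85, SE 0.25, adjusted p = 0.00897). All UUO libraries but H5 lay under the lowest CL library. Within libraries with joined names the change was -0.87 (adjusted p = 0.0792), within those with plain names -0.79 (0.102), and without libraries that hold counts of both Xist and Y-linked genes -0.54 (0.287). In the other mice the estimates ran from -0.41 (IgG, SE 0.24, adjusted p = 0.201) to 0.31 (VeWT, SE 0.32, adjusted p = 0.583). The response of ABT mice differed from that of IgG mice by -0.45 (SE 0.35, adjusted p = 0.9995).

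Over the means of the 12 groups the genes that followed each receptor most closely were Irf7 (r = 0.968), Plp2 (0.965), and Bin3 (0.961) for Egfr, Pcm1 (0.907), Kifap3 (0.898), and Ino80 (0.891) for Erbb2, Edem3 (0.921), Fbxl5 (0.849), and Zkscan1 (0.843) for Erbb3, and 1700088E04Rik (0.885), Pja2 (0.883), and Socs7 (0.875) for Erbb4. Over the 75 libraries, after group and name form were taken out, r was at most 0.577 for any receptor, with Epcam, an epithelial adhesion protein, first for Erbb4. These values too are descriptions over points that share libraries and scaling.

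**Figure D5:**
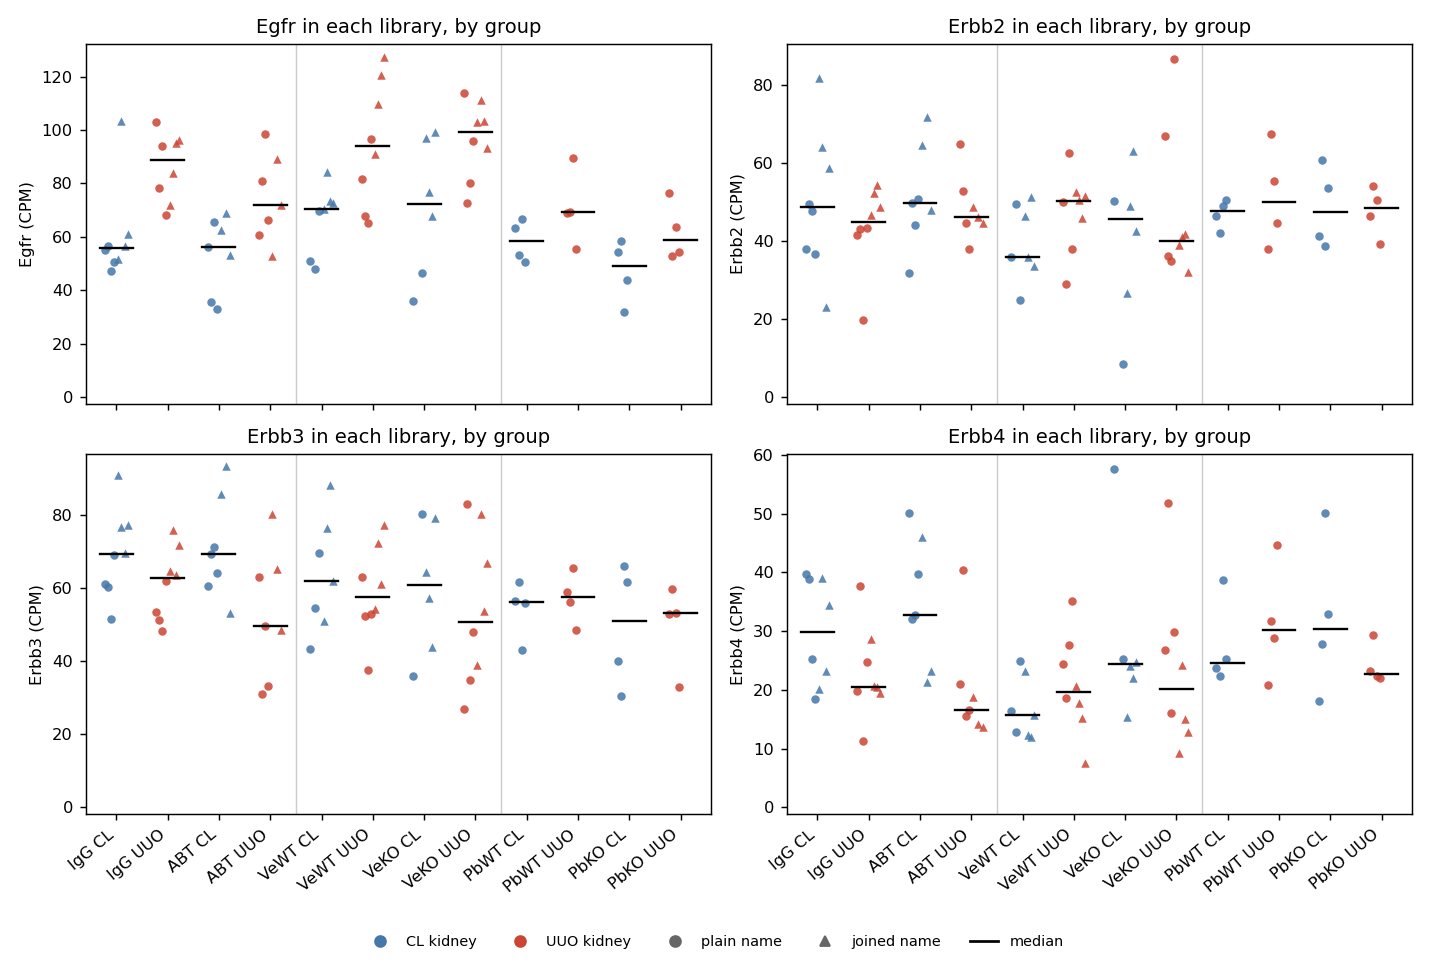
Levels of Egfr, Erbb2, Erbb3, and Erbb4 in CPM in each library by group, with circles for plain and triangles for joined library names and lines for medians. Egfr medians are higher in UUO than in CL kidneys in all 6 kinds of mice, and CL and UUO libraries of each receptor overlap.

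Of the 6 tested genes, 2 were called higher and 1 lower in IgG mice, where 16.3% and 18.2% of all genes were called higher and lower. In ABT mice 2 were higher and 2 lower (12.6% and 12.5% of all genes), and in VeWT mice 1 and 1 (10.0% and 8.38%). None was called in VeKO mice (4.47% and 3.48%), where edgeR counted Egf, Egfr, and Hbegf at an unadjusted threshold of 0.05, beside 2409 of 11916 genes, and DESeq2 called Areg alone. In PbWT mice 1 was higher and 1 lower (17.9% and 19.4%), and in PbKO mice 1 was lower and none higher (2.42% and 3.95%). Egf alone was called between PbKO and PbWT UUO kidneys (18.6% of all genes) and for the difference between their responses (8.55%). Without TMM factors the median of all genes in PbWT mice was 0.41 in place of 0.04, the largest shift of the 15 comparisons, and Egfr and Erbb2 were then also called higher there (0.68 and 0.52). The sign of Erbb2 turned in IgG, ABT, and PbKO mice (0.02, 0.09, and 0.05) and that of Erbb3 in IgG, VeWT, VeKO, and PbKO mice (0.07, 0.08, 0.02, and 0.03). Medians of all genes then stood at 0.23, 0.14, 0.14, 0.12, and 0.08 in IgG, ABT, VeWT, VeKO, and PbKO mice. The turns near 0 are therefore not read as changes of Erbb2 or Erbb3.

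Of 6 other ligands of the family, 2 or 3 had enough counts for a test. Nrg1, neuregulin-1, a ligand of ERBB3 and ERBB4, rose in all 6 kinds of mice, from 3.05 to 17.7 CPM in IgG CL to 21.6 to 52.3 CPM in IgG UUO kidneys (log2 fold change 2.12, SE 0.27, adjusted p = 1.94e-07). The smallest rise was 1.12 in PbKO mice (SE 0.32, adjusted p = 0.0356), and in UUO kidneys Nrg1 was lower in PbKO, at 3.31 to 28.3 CPM, than in PbWT, at 43.6 to 47.1 CPM (log2 -1.14, SE 0.22, adjusted p = 0.000639). Nrg4 fell in VeWT mice (-0.65, adjusted p = 0.0408), and Btc, betacellulin, did not pass the threshold in any.

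Among 6 sheddases and their carriers, which release the ligands, 4 or 5 were tested. Adam10 rose in IgG (0.58, SE 0.20, adjusted p = 0.0216), ABT (0.55, 0.0478), PbWT (0.66, 0.00185), and PbKO mice (0.68, 0.025). Rhbdf1 rose in ABT (0.68, adjusted p = 0.0323) and Rhbdf2 in PbWT mice (1.35, 0.00285), the iRhoms that carry ADAM17. In IgG, ABT, VeWT, VeKO, PbWT, and PbKO mice 1, 2, 0, 0, 2, and 1 of the list rose and none fell, where 16.3%, 12.6%, 10.0%, 4.47%, 17.9%, and 3.95% of all genes rose. The medians of the list ran from 0.12 (VeKO) to 0.38 (PbKO), where those of all genes ran from -0.01 to 0.04.

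Of 10 inhibitors and turnover factors of the receptors, 8 to 10 were tested, and 1 or 2 rose and up to 2 fell in each kind of mouse, where 3.95% to 17.9% of all genes rose and 2.42% to 19.4% fell. Socs3, a cytokine-induced inhibitor of signaling, rose in all 6, by 4.28 in IgG (SE 0.51, adjusted p = 1.21e-08) and by 2.54 at the least in VeKO mice (SE 0.61, adjusted p = 0.00639). Errfi1, the gene of MIG6, which blocks the EGFR kinase, fell in IgG (-0.62, SE 0.13, adjusted p = 0.0002), ABT (-0.47, 0.00817), VeWT (-0.68, 0.00803), and PbWT mice (-0.93, 0.000926). In UUO kidneys Socs3 was lower in PbKO than in PbWT, at 8.58 to 21.4 against 36.8 to 56.4 CPM (log2 -1.49, adjusted p = 0.000372). Usp8, a deubiquitinase of receptor sorting, fell in ABT mice (-0.53, adjusted p = 0.0138).

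All 18 adaptors and members of the RAS to ERK cascade were tested. In IgG, ABT, VeWT, and PbKO mice 4, 4, 3, and 1 rose and none fell, in VeKO mice none passed, and in PbWT mice 7 rose and 3 fell. Of all genes, 16.3%, 12.6%, 10.0%, and 3.95% rose in the first 4 and 17.9% rose and 19.4% fell in PbWT mice, and nothing particular to the list is read from its counts. Stat3 rose in IgG (1.14, adjusted p = 5.21e-08), ABT (1.06, 5.94e-07), VeWT (0.90, 0.00639), and PbWT mice (1.52, 3.82e-08), as did Nras, by 1.15, 0.95, 0.72, and 0.90. Shc1, an adaptor of the receptors, rose in IgG (0.57, adjusted p = 0.0237), ABT (0.67, 0.0115), and PbWT mice (0.63, 0.0225). In UUO kidneys Stat3 was 60.5 to 92.8 CPM in PbKO and 101 to 111 CPM in PbWT mice (log2 -0.63, adjusted p = 0.00369). Of the 18 genes 3 were lower in PbKO (Stat3, Nras at log2 -0.49, and Pik3r1 at -0.81) and 2 higher, with Hras at 0.69, where 18.6% of all genes were called. Pik3r1 and Hras are outside the rule for named genes and were chosen after their values were seen.

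Of 17 targets and feedback genes of ERK, 9 to 13 were tested, and 1 to 5 rose and at most 1 fell in each kind of mouse, against the same shares of all genes. Myc rose in all 6 kinds of mice, by 1.68 (PbKO, SE 0.40, adjusted p = 0.0121) to 3.05 (PbWT, SE 0.37, adjusted p = 2.97e-07). Egr1 rose in IgG (1.87), VeWT (1.87), VeKO (1.97), and PbWT mice (1.51), with adjusted p from 0.00125 to 0.0364. Ccnd1, cyclin D1, fell in IgG (-0.86), VeKO (-0.72), PbWT (-0.72), and PbKO mice (-0.56), with adjusted p from 0.000447 to 0.0308. The medians of this list, from -0.06 in ABT to 0.53 in PbWT mice, lay on both sides of 0. In UUO kidneys 5 of 6 fibroblast, 5 of 8 macrophage, and 3 of 5 endothelial markers were also lower in PbKO than in PbWT mice. Their summed levels were 284 to 719 against 850 to 1120 CPM, 365 to 430 against 531 to 814 CPM, and 113 to 164 against 165 to 224 CPM. The part of these cells, and of the tubule segments described above, in the values of the lists was not tested.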

How the data were processed

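The genes and lists were chosen with earlier results of these data known. The deposited values are raw counts per gene. Per the labels, the authors followed a Smart-seq3 protocol and used the build mm10. By the study's methods, they merged 4 wells per sample, aligned with STAR 2.7.3a, removed duplicates with UMI-tools 1.1.4, and counted with featureCounts (Subread 1.4.6-p5). The annotation version is not given in the sources used here. The counts of 32245 genes were tested in each arm over its 4 groups with edgeR 4.0.16 (R 4.3.3): filterByExpr, TMM, and the quasi-likelihood test. Benjamini-Hochberg adjustment ran over all 9579 (ABTAA), 11916 (Veptp), or 10923 (Pdgfb) genes tested, with a threshold of 0.05, and the SE is the log2 fold change over the root of F. The study used the edgeR exact test, run here as an alternative, as was DESeq2 1.42.0. The test was tried on simulated data first. No columns of any 2 libraries were identical. P-values measure the spread between these libraries, which total 172827 to 2341800 counts.

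Numbers in library names were taken as pairs in the ABTAA arm, where the deviations of the 3 same-numbered CL and UUO libraries correlated at 0.159 to 0.386. They were not taken so in the Veptp arm, where 1 of 8 such correlations was not over 0.1 and numbers 3, 4, 7, and 8 carry opposite genotypes. Those 8 ran from 0.0583 to 0.427 (median 0.238), against a median of -0.0309 over 56 other combinations. The highest was that of G_3, labelled VeKO, and H_3, labelled VeWT. Xist stood at 454 to 1530 counts in numbers 2 and 3 of both kidneys and at 15 or fewer in the other numbers. Whether these numbers pair kidneys, and whether the genotype labels of numbers 3, 4, 7, and 8 hold, was not tested. Genes named from the pathway lists were the 3 of each list called in the most UUO comparisons, and for likeness the first 3 by Pearson's r. Gene positions come from the GENCODE vM21 annotation of GRCm38. The promoters of Hbegf, Ereg, and Erbb3 were not analysed here. The values of 1 gene of the adaptor and RAS to ERK list are not reported here.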

Additional observations from a re-analysis of the deposited data

Results flagged for a closer look

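Of 98 sets of a gene in a group of 4 to 8 libraries, 17 held a library that stood apart from the rest by Dixon's ratio. The limit is one that chance passes in about 1 in 20 sets of continuous values. That rate does not hold for sets of counts near 0, so the 17 are not set against it. For Egf it was D6 of IgG UUO kidneys at 768 CPM, with the other 7 at or under 124 CPM. For Hbegf it was G5 of ABT UUO kidneys at 23.1 CPM, the lowest of its group. Among the receptors it was P_2 of IgG CL for Egfr (103 CPM), H6 of IgG UUO for Erbb2 (19.9 CPM, 7 counts), H5 of ABT UUO for Erbb4 (40.5 CPM), and E7 of VeKO CL for Erbb4 (57.6 CPM).

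The other 11 rested on 0 to 2 counts, and where 1 library alone had a count the ratio was fixed at its highest value. For Areg they were O_11 of ABT UUO (1.19 CPM), F3 of VeWT CL (1.49 CPM), A11 of PbKO CL (1.99 CPM), and F10 of PbKO UUO (0 CPM). For Ereg they were P_2 of IgG CL (1.4 CPM), P_8 of IgG UUO (2.44 CPM), H_7 of VeKO UUO (0.736 CPM), B11 of PbWT UUO (0.634 CPM), and A12 of PbKO UUO (1.72 CPM). For Tgfa they were F9 of VeWT CL (0 CPM) and G_1 of VeKO CL (1.92 CPM).

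The response of Egf to UUO differed between PbKO and PbWT mice by 3.06 (log2, SE 0.34, edgeR adjusted p = 3.84e-06), with a fall in all 4 UUO libraries of each genotype. It differed between libraries with joined and plain names in the Veptp arm by -2.81 (SE 0.44, adjusted p = 0.000514), a comparison chosen after seeing the data.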

How the results depend on the processing

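Of 90 log2 fold changes of the 6 tested genes, no called value reversed. Leaving out 1 library in turn gave 2250 values, of which 26 lost a call and 3 gained one. The other alternatives gave 1097 values, of which 19 lost a call and 18 gained one. Areg enters the counts below where the filter lets it. The number of genes called in ABT mice, 4, was 2 with a mean count of at least 20 and 2 after thinning to the shallowest library. In both, Hbegf and Erbb4 had too few counts to be tested in the ABTAA arm, and the count in IgG mice was 2 in place of 3. In ABT mice it was also 2 with joined names alone, 2 with plain names alone, and 1 without libraries that hold counts of both Xist and Y-linked genes. Between ABT and IgG UUO kidneys it was 1 with no filter. In VeWT mice, 2 became 1 without TMM, 1 in libraries with plain names, 1 without the libraries with both counts, and 0 without numbers 3, 4, 7, and 8. In VeKO mice, 0 became 1 with DESeq2 and 1 with no filter (Areg in both), 1 with a mean count of at least 20 and 1 with all 12 groups in 1 fit (Hbegf in both), 3 with the name form as a covariate, and 2 with joined names alone. Areg also made it 3 in VeWT and PbWT mice with DESeq2 and, with no filter, 4 in IgG and 3 in PbWT mice. With no filter Egfr was lost in ABT and VeWT mice (adjusted p = 0.104 and 0.135), which left 3 and, with Areg, 2. With the replicate block by number it was 2 in VeKO mice (Egf, -2.68, adjusted p = 0.0124, and Egfr) and with the block and the form 3 (Hbegf too), and 5 in place of 4 in ABT mice, and the block changed no other call. In PbWT mice 2 became 4 without TMM, and between PbKO and PbWT UUO kidneys 1 became 2. With all 12 groups in 1 fit, 1 became 0 in PbKO mice and for the difference between the Pdgfb responses. The cause was not tested. With 1 library left out, the count ran from 1 to 2 in VeWT, 0 to 1 in VeKO, 1 to 2 in PbWT, 0 to 1 in PbKO, and 3 to 5 in ABT mice, and did not move in the other 10 comparisons. The libraries with both counts were not left out in the Pdgfb arm, where all 4 PbKO UUO libraries hold them. That alternative was chosen after seeing the data. At 172827 to 2341800 counts per library, Areg, Ereg, and Tgfa were near the limit of detection.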
